A study of Mus musculus with 16 samples.

Results

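The muscle actins are the 3 alpha-actin genes of striated and smooth muscle: Acta1, which encodes the skeletal alpha-actin, Actc1, which encodes the cardiac alpha-actin, and Acta2, which encodes the smooth muscle alpha-actin. They were found by gene symbol, with the probe set of highest mean over all arrays for each symbol. Each symbol had 1 probe set of its own, so the set is 3 of the 19938 genes with a probe set of their own, among 35556 probe sets in all. All 3 passed the filter on low values, which kept 21333 probe sets whose log2 values averaged more than 4.37.

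Alpha-actins build the thin filament on which myosin pulls, and differ from each other by few residues. The adult heart muscle cell relies mainly on the cardiac form. The skeletal form is the sarcomeric actin of skeletal muscle, is abundant in the fetal heart and is widely used as a marker of the fetal gene programme that returns under load. The smooth muscle form marks vessel walls and myofibroblasts. All are classical targets of serum response factor (SRF), which binds the CArG box together with the coactivators myocardin and the myocardin-related factors.

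RNA came from hearts of 16 male C57BL/6 mice, with 1 Affymetrix Mouse Gene 1.0 ST array per mouse and 4 mice per group. The mice were labelled either Zbtb17 cKO, a conditional knockout of the gene for the transcription factor Miz1, or control. They underwent transverse aortic constriction (TAC), which tightens the aorta so that the heart pumps against raised pressure, or sham surgery. Surgery was at 8 to 10 weeks of age and hearts were taken 4 weeks later. Each genotype thus has a sham and a TAC group. The labels name neither the Cre line or promoter behind the knockout nor the alleles that the control mice carried.

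The promoters of both sarcomeric actins are shown because SRF sites are the feature that the muscle actins are known to share. Each line gives the 250 bases before the start of the gene in the RefSeq promoter table, 5′ to 3′ on the gene's own strand, on GRCm38.p6. Capitals mark CArG boxes, here 10 letters with a pair of C, a core of 6 letters and a pair of G, in which at most 1 letter of the core is G or C. The windows are chr8:123894776-123895025 for Acta1 and chr2:114052876-114053125 for Actc1, both on the minus strand and beginning at the base next to the annotated gene. The window of Acta2, chr19:34255374-34255623 on the minus strand, was searched too but is not printed, because 212 of its 250 bases lie inside the annotated gene, which begins farther upstream than the start used in the table.
Acta1: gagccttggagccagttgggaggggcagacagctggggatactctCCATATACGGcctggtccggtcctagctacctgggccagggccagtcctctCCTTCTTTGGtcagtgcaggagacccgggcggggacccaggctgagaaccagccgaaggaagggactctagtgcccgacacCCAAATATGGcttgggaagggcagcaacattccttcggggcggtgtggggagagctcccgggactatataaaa
Actc1: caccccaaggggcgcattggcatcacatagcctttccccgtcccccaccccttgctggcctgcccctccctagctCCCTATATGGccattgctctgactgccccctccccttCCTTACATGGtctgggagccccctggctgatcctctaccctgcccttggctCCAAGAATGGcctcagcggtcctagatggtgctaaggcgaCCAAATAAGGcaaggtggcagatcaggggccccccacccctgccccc

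The Acta1 window held 3 such boxes, the Actc1 window 4 and the Acta2 window 2. A box with only A and T in its core was found in 2 of the 3 windows, as CCAAATATGG, 73 to 64 bases before the start of Acta1, and as CCAAATAAGG, 47 to 38 bases before the start of Actc1. The Acta2 window held none of this strict kind, and its boxes, CCCTATATGG and CCTTGTTTGG, each have 1 G or C in the core and lie inside the annotated gene. The sequence CCCTATATGG also occurred in the Actc1 window, 175 to 166 bases before the start. Among 32851 promoters in the RefSeq table, 1.47% held a strict box in the same 250 bases, 8.59% held a box of either kind and 0.67% held 2 or more. The motif was read on both strands, and a match is a description of letters, not of a bound site.

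Other short motifs were searched on both strands, without any overlap with the boxes in capitals. CATTCC, the core of sites for TEAD factors, lay 46 to 41 bases before the start of Acta1 and was found once, on the other strand, in the Acta2 window, and 12.6% of all promoters held it in 250 bases. GGGCGG, the core of GC boxes, was found at 128 to 123 and at 36 to 31 bases before the start of Acta1 and in 32.7% of all promoters. TATAAA lay only 7 to 2 bases before the start of Acta1 and began 34 bases after that of Actc1, and 13.6% of all promoters held it in the whole 300-base windows. Printed distances count from the starts in the table.

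Acta1 lies on chromosome 8 at 123891758 to 123894775 of GRCm38.p6, Actc1 on chromosome 2 at 114047282 to 114052875, and Acta2 on chromosome 19 at 34240336 to 34255585. Their probe sets are 10582592, 10485982 and 10467124. Probe sequences were not used here, and how far the probes of 1 actin also bind RNA of another was not tested. Levels of different probe sets are not comparable with each other, so each gene is described against itself.

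Array medians lay between 4.85 and 4.97 on the log2 scale, and Spearman correlation between arrays between 0.972 and 0.987. Precision is limited by the number of arrays. Cardiomyocyte markers (9 of 9 above the filter) averaged 12.68 to 13.00 per array, while skeletal muscle markers averaged 4.42 to 4.71, with 6 of 10 above the filter. Among the latter, the fast myosin genes Myh1 and Myh4 read 3.75 to 4.29 and 4.11 to 4.54. The highest of the 10 were Tnni2, at 5.92 to 6.43, and Tnnt3, at 5.18 to 5.68. Zbtb17 itself read 6.19 to 6.56 in control and 6.47 to 6.62 in cKO hearts, which does not separate the genotypes. The labels do not say which exons were deleted, so the probe set cannot check them, and cKO means labelled as such throughout. The atrial gene Myl7 was above 6 on 6 arrays (replicates 1 and 2 of control TAC, 1 and 2 of cKO TAC, 3 of control sham and 2 of cKO sham). Without these 6 arrays, each TAC group is left with replicates 3 and 4 only. The stress gene Atf3 was above 8 on 3 sham arrays (control replicates 3 and 4, cKO replicate 1).

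Acta1 was the most variable of the muscle actins. In control sham hearts its log2 values were 9.84, 10.54, 10.02 and 9.99 for replicates 1 to 4, and in control TAC hearts they were 9.31, 11.60, 9.88 and 11.90. In cKO sham hearts they were 10.02, 10.71, 11.55 and 9.83, and in cKO TAC hearts 12.65, 12.57, 10.79 and 10.75. The control sham hearts lay close together, while each TAC group split into 2 higher and 2 lower hearts. The lower hearts of cKO TAC, at 10.79 and 10.75, still lay above every control sham heart. Every group overlapped every group it was compared with. Among all probe sets kept, 3.73% showed no overlap between TAC and sham in control hearts and 4.36% in cKO hearts, and 5.27% and 4.27% showed none between the genotypes after sham and after TAC. From the lowest to the highest of the 16 arrays the span was 3.34 log2 units, or 10.1-fold.

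Actc1 had the narrowest range. Its log2 values were 13.64, 13.70, 13.70 and 13.78 in control sham, 13.65, 13.73, 13.81 and 13.73 in control TAC hearts. They were 13.78, 13.80, 13.79 and 13.72 in cKO sham and 13.77, 13.71, 13.79 and 13.80 in cKO TAC hearts. All 16 values lay within 0.17 log2 units, or 1.13-fold, and the groups overlapped. The probe set sat near the top of the signal scale, where 13 probe sets had a higher mean and the highest value of an array was 14.19 to 14.35. How far the scale is compressed there was not tested.

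Acta2 read 10.57, 10.58, 10.90 and 10.90 in control sham hearts and 9.72, 10.24, 10.69 and 10.31 in control TAC hearts. It read 10.17, 10.71, 10.25 and 10.12 in cKO sham and 9.88, 10.59, 10.83 and 10.47 in cKO TAC hearts. The control sham hearts were the tightest group, and 3 of 4 hearts in control TAC and 3 of 4 in cKO sham lay below all of them. The span over the 16 arrays was 1.18 log2 units, or 2.27-fold. In RNA from heart tissue, fewer cells of a type and less RNA per cell cannot be told apart.

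**Figure D1:**
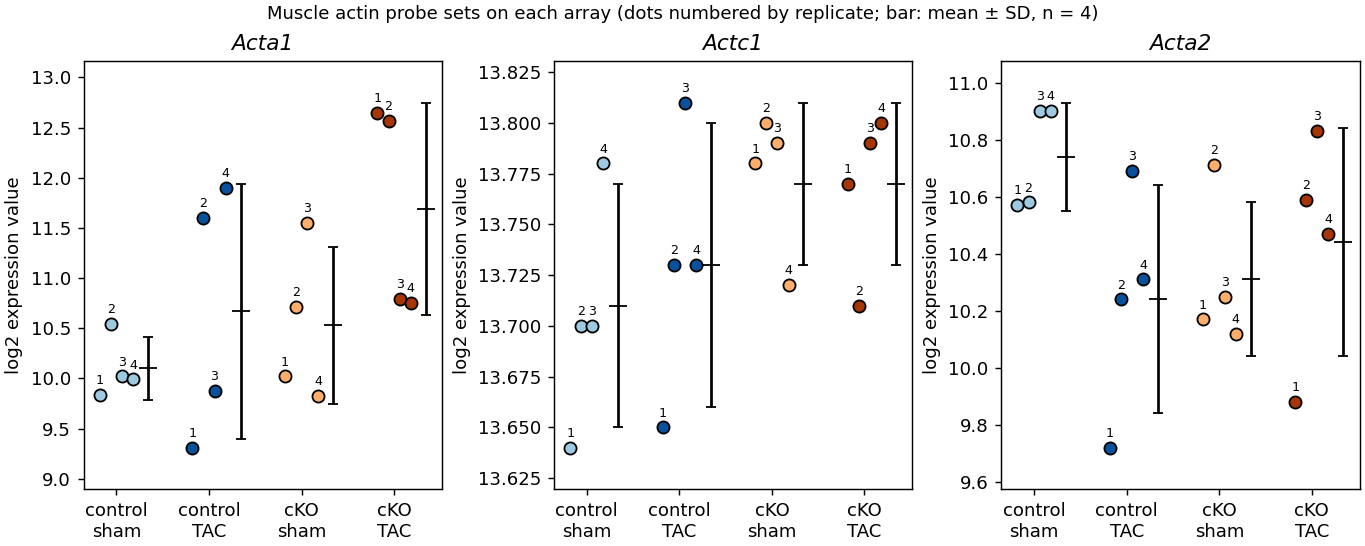
Log2 expression value (y axis, a separate scale per panel) of Acta1, Actc1 and Acta2 in the 4 groups (x axis). Dots are single arrays numbered by replicate, and bars give the mean ± SD of 4 arrays. Acta1 spans 9.31 to 12.65, Actc1 13.64 to 13.81 and Acta2 9.72 to 10.90, with overlap between the groups compared in every panel.

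The muscle actins differed widely in their spread between mice of 1 group. The SD within groups, pooled over the 4 groups, was 0.93 log2 units for Acta1 (95% confidence interval 0.666 to 1.53), so that 1 SD is a factor of 1.9. The interval takes the SD as equal in the 4 groups. Of the 21333 probe sets kept, 37 had a wider spread. By group the SD of Acta1 was 0.31 after sham and 1.27 after TAC in control hearts, and 0.78 after sham and 1.06 after TAC in cKO hearts (n = 4 each).

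The pooled SD of Actc1 was 0.051 log2 units, narrower than in all but 88 probe sets. Among the 129 probe sets whose mean lay within 1 log2 unit of its own, this spread was at the 47.3 percentile, so it was ordinary for a signal of that height. The pooled SD of Acta2 was 0.33 (89.7 percentile of all probe sets kept), against a median of 0.16. Actb, the gene of the cytoplasmic beta-actin, had a pooled SD of 0.17. These are descriptions and carry no test.

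**Figure D2:**
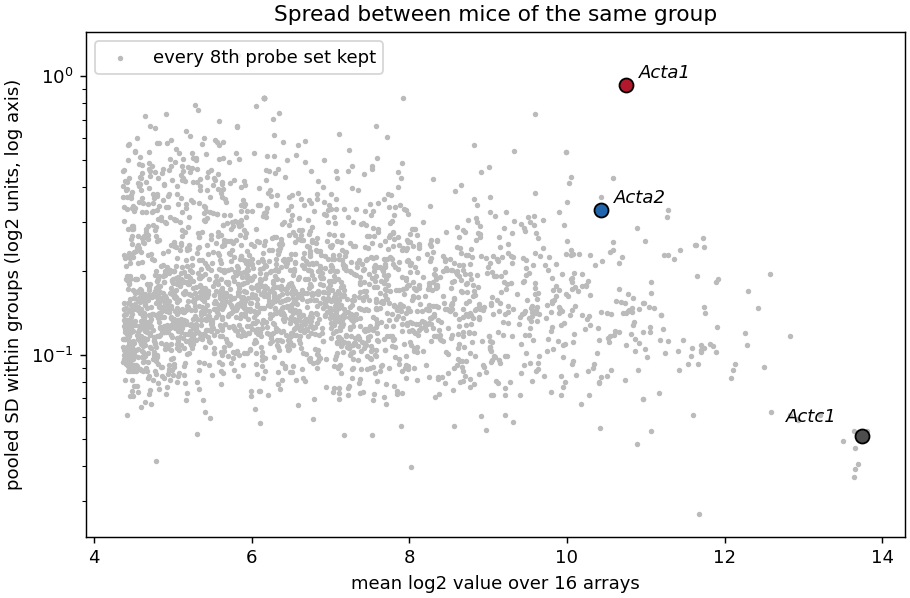
Pooled SD within the 4 groups (y axis, log2 units, log axis) against the mean log2 value over 16 arrays (x axis), with every 8th probe set kept in grey. Acta1, at a pooled SD of 0.93, lies above the grey points at its signal height, Acta2 at 0.33 lies near their upper edge and Actc1 at 0.051 lies among the other probe sets of very high signal.

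The first comparison asks what 4 weeks of pressure load did in control hearts. Acta1 was 10.10 ± 0.31 after sham and 10.67 ± 1.27 after TAC (mean ± SD of log2 values, n = 4 each), a difference of 0.58 ± 0.58 (SE; 95% confidence interval -0.65 to 1.80; limma adjusted p = 0.814). TAC replicates 2 and 4 were above every sham heart and replicate 1 below every one. The difference was 0.17 without control TAC replicate 4 and 1.03 without control TAC replicate 1, so single hearts set its size.

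Acta2 lay lower in the loaded control hearts, at 10.24 ± 0.40 against 10.74 ± 0.19, a difference of -0.50 ± 0.21 (95% confidence interval -0.94 to -0.056; limma unadjusted p = 0.0295, adjusted p = 0.565). All 4 TAC hearts were below the sham mean. The difference was -0.32 without control TAC replicate 1 and -0.18 ± 0.15 without the 6 arrays with Myl7 above 6. The highest sham hearts, replicates 3 and 4 at 10.90, were also the control sham arrays with Atf3 above 8. Actc1 differed by 0.025 ± 0.042 (adjusted p = 0.896). With limma, 0 of 3 muscle actins and 0% of probe sets passed an adjusted p of 0.05, while 1774 probe sets (8.32%), Acta2 among them, had an unadjusted p under 0.05.

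Averaged over 14 smooth muscle and pericyte markers, the mean log2 level was 7.92 to 8.17 in control sham and 8.05 to 8.15 in control TAC hearts. Myh11, the smooth muscle myosin heavy chain, read 7.30 ± 0.26 and 7.33 ± 0.11 in these groups. Tagln read 6.40 ± 0.34 and 6.48 ± 0.29, and Cnn1 5.39 ± 0.49 and 5.35 ± 0.20. Of the 14 differences of TAC against sham, 10 were positive and 4 negative (median 0.079), where 54.8% of all probe sets were positive. They ran from -0.16 to 0.32. By limma, 0 of the 14 were called and 2 had an unadjusted p under 0.05, against 8.32% of all probe sets. The part of cell numbers in the lower Acta2 values was not tested.

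In cKO hearts the same load went with the largest difference of any muscle actin in a comparison of 2 groups. Acta1 was 10.53 ± 0.78 after sham and 11.69 ± 1.06 after TAC, 2.24-fold higher, with a log2 difference of 1.16 ± 0.58 (95% confidence interval -0.065 to 2.39; limma unadjusted p = 0.0618, adjusted p = 0.731). All 4 TAC hearts were above the sham mean, and replicates 1 and 2 were above every sham heart. The difference ranged from 0.84 without cKO TAC replicate 1 to 1.50 without cKO sham replicate 3. Replicates 1 and 2 of cKO TAC were also those with Myl7 at 6.07 and 8.83, and without the 6 arrays of Myl7 above 6 the difference was 0.30 ± 0.60. Over the whole list of 6 atrial markers, of which 5 passed the filter, the mean per array was 6.57 to 8.01 in cKO sham and 6.40 to 8.48 in cKO TAC hearts. The part of atrial tissue in this result was not tested.

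Acta2 was 10.31 ± 0.27 after sham and 10.44 ± 0.40 after TAC in cKO hearts, a difference of 0.13 ± 0.21 (adjusted p = 0.932), and it ran from 0.00083 without cKO TAC replicate 3 to 0.32 without cKO TAC replicate 1. Without the 6 arrays of Myl7 above 6 it was 0.47 ± 0.15 (adjusted p = 1). Actc1 differed by -0.005 ± 0.042 (95% confidence interval -0.093 to 0.083, or 0.937 to 1.06 as a ratio; adjusted p = 0.991). No muscle actin (0 of 3, and 0% of all probe sets) passed limma's adjusted threshold, and 1447 probe sets (6.78%) had an unadjusted p under 0.05, with 0 of the 3 among them.

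Averaged over both genotypes, the TAC difference of Acta1 was 0.87 ± 0.41 (1.83-fold; 95% confidence interval 0.001 to 1.74; limma unadjusted p = 0.0498, adjusted p = 0.414). It was 0.66 without control TAC replicate 4, 1.10 without control TAC replicate 1 and 0.53 ± 0.43 without the 6 arrays of Myl7 above 6. For Actc1 it was 0.01 ± 0.029 and for Acta2 -0.18 ± 0.15, which turned to 0.14 ± 0.11 without those 6 arrays. Again 0 of 3 muscle actins and 0% of probe sets were called by limma, and 2569 probe sets (12%), Acta1 among them, had an unadjusted p under 0.05.

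The genotype comparisons ask how hearts labelled Zbtb17 cKO differed from control hearts without and with load. After sham surgery Acta1 was 0.43 ± 0.58 higher on the log2 scale in cKO hearts (limma adjusted p = 0.814), and the difference was 0.089 without cKO sham replicate 3, the highest of its group at 11.55. Acta2 lay lower, with a difference of -0.43 ± 0.21 (95% confidence interval -0.87 to 0.016; unadjusted p = 0.0579, adjusted p = 0.483), and was -0.21 ± 0.28 without the 3 sham arrays of high Atf3. Actc1 was 0.068 ± 0.042 higher (adjusted p = 0.573), with all 4 cKO hearts above the control mean. None of the 3 was called, against 5 probe sets (0.0234%), and 2278 probe sets (10.7%) had an unadjusted p under 0.05, with 0 of the 3 among them.

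After TAC, Acta1 was 11.69 ± 1.06 in cKO and 10.67 ± 1.27 in control hearts, 2.02-fold higher, with a log2 difference of 1.02 ± 0.58 (95% confidence interval -0.21 to 2.24; limma adjusted p = 0.723). Leaving out control TAC replicate 1 gave 0.56 and leaving out control TAC replicate 4 gave 1.43. Without the 6 arrays of Myl7 above 6 the direction turned, to -0.12 ± 0.66. Only replicates 3 and 4 of each group were then left, at 10.79 and 10.75 in cKO and 9.88 and 11.90 in control hearts. Acta2 differed by 0.20 ± 0.21 (adjusted p = 0.868), or 0.029 without control TAC replicate 1, and Actc1 by 0.037 ± 0.042 (adjusted p = 0.884). With limma, 0 of 3 muscle actins were called against 1 probe set (0.00469%), and 1617 probe sets (7.58%) had an unadjusted p under 0.05, with 0 of the 3 among them.

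Averaged over surgery, cKO minus control was 0.72 ± 0.41 for Acta1 (adjusted p = 0.42), 0.052 ± 0.029 for Actc1 (adjusted p = 0.416) and -0.11 ± 0.15 for Acta2 (adjusted p = 0.75). Of the 3, 0 were called by limma, against 4 probe sets (0.0188%), and 3182 probe sets (14.9%) had an unadjusted p under 0.05, with 0 of the 3 among them. The Acta1 value was 0.11 ± 0.43 without the 6 arrays of Myl7 above 6.

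Whether load acted differently in the genotypes was tested by the interaction. Acta2 gave 0.63 ± 0.29 (95% confidence interval 0.0037 to 1.25; limma unadjusted p = 0.0488, adjusted p = 1), from a difference of -0.50 in control and 0.13 in cKO hearts. It was 0.65 ± 0.22 without the 6 arrays of Myl7 above 6 and 0.42 ± 0.36 without the 3 of high Atf3. Acta1 gave 0.59 ± 0.82, which was 0.13 without control TAC replicate 1 and -0.46 ± 0.85 without the 6 arrays of high Myl7, and Actc1 gave -0.03 ± 0.059. Limma called 0 of 3 and 0% of probe sets, and 790 probe sets (3.7%), Acta2 among them, had an unadjusted p under 0.05.

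**Figure D3:**
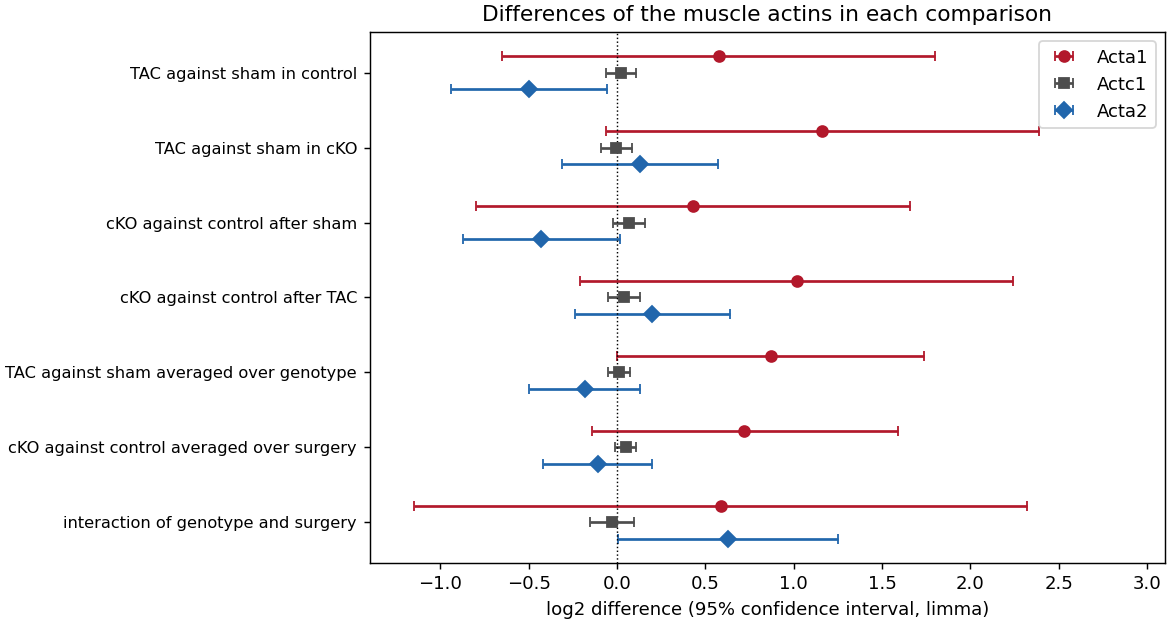
Log2 difference (x axis) of Acta1 (circles), Actc1 (squares) and Acta2 (diamonds) in 7 comparisons (y axis), with 95% confidence intervals from limma. Intervals of Acta1 are the widest (-0.65 to 1.80 for TAC in control hearts) and those of Actc1 the narrowest (-0.063 to 0.11), and no difference passed the adjusted threshold.

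The balance of skeletal to cardiac actin within a heart was followed by Acta1 minus Actc1 on each array, of which only changes between groups can be read. The TAC change was 0.55 log2 units in control and 1.17 in cKO hearts, and cKO minus control was 0.36 after sham and 0.98 after TAC. Exact two-sided permutation tests of 4 against 4 hearts, whose smallest possible p is 0.0286, gave p = 0.429, 0.143, 0.543 and 0.314, each adjusted to 0.543 over the 4 comparisons. The 4 values were 0.14 without control TAC replicate 4, 0.85 without cKO TAC replicate 1, 0.027 without cKO sham replicate 3 and 0.55 without control TAC replicate 1, in that order, and the last turned to -0.15 without the 6 arrays of Myl7 above 6. Since Actc1 was nearly constant, these differences are close to those of Acta1 alone.

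Hearts that were high in 1 muscle actin for their group were not generally high in another. With each value taken relative to its group mean, Acta1 and Actc1 had a Pearson r of 0.016 over 16 hearts (Spearman rho = -0.084; permutation p = 0.965 and 0.795, adjusted over 3 pairs 0.965 and 0.865; r = -0.24 without control TAC replicates 4 and 1). Acta1 and Acta2 had r = -0.052 (rho = -0.054; permutation p = 0.883 and 0.865, adjusted 0.965 and 0.865; r = -0.37 without the same hearts).

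Actc1 and Acta2 had r = 0.59 (rho = 0.62; permutation p = 0.0341 and 0.023, adjusted 0.102 and 0.0689). Without control TAC replicates 1 and 3, the hearts farthest from the median of Actc1, r was 0.34. The relation therefore did not pass the adjusted threshold. Leaving out the most extreme Actc1 values narrows the range and can by itself lower r, so whether the relation rests on those hearts was not settled. With each array left out in turn, r ran from 0.44 to 0.73.

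Hearts high in Acta1 for their group were also high in Ankrd1, Xirp2 and Nppa. For 12 fetal and pressure overload markers, a family taken up after its values were seen, r with Acta1 was above 0 in 12 of 12 (median 0.60), against 52.2% of 13669 genes. Without the 6 arrays of Myl7 above 6 it was above 0 in 9 of 12 (median 0.15), with Myh7 (-0.29), Uchl1 (-0.33) and Ccn2 (-0.19) below. Ankrd1, a stretch-responsive regulator held in the sarcomere, gave r = 0.84 (rho = 0.83; permutation p = 0.00047 and 0.0007, adjusted over the 12 relations 0.00564 and 0.0084), and r = 0.80 without control TAC replicates 4 and 1. Xirp2, an actin-binding protein of the intercalated disc, gave r = 0.82 (rho = 0.81; permutation p = 0.00599 and 0.00561, adjusted 0.024 and 0.0337), and 0.84 without those hearts. Nppa, the atrial natriuretic peptide, gave r = 0.79 (rho = 0.77; permutation p = 0.00223 and 0.0118, adjusted 0.0134 and 0.0471), and 0.67 without them.

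The single hearts show the pattern. Control TAC replicate 1 was the lowest of all 16 in Acta1 (9.31), Ankrd1 (12.28), Xirp2 (10.69) and Nppa (9.86), and also in Acta2 (9.72). The highest Ankrd1 (13.30), Xirp2 (12.09) and Nppa (13.27) were all in cKO TAC replicate 2, which had the second highest Acta1. Both are among the 6 arrays with Myl7 above 6. On the 10 other arrays r was 0.75 for Nppa (permutation p = 0.0844) and 0.74 for Xirp2 (p = 0.0626), while Ankrd1 stayed under 0.05 in every alternative run, with permutation p values up to 0.0283.

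The other 9 markers did not pass the adjusted threshold. Mybpc2 (r = 0.67), a myosin-binding protein of fast fibres, Enah (0.66), an actin filament elongation factor, and Postn (0.63), a matrix protein of activated fibroblasts, each had an adjusted permutation p of 0.0737. Nppb, the B-type natriuretic peptide, and Fhl1, a LIM protein, both had r = 0.57 (adjusted p = 0.109). Tnni1 (0.36), Myh7 (0.33), Ccn2 (0.23) and Uchl1 (0.018) were lower. Without the 6 arrays of Myl7 above 6, r was 0.33 for Mybpc2, 0.16 for Enah, 0.13 for Fhl1, 0.11 for Nppb and 0.57 for Postn, and Tnni1 reached 0.75 without control TAC replicate 4. The fetal myosin Myh7 and the skeletal actin, often named together as fetal programme genes, had r = 0.33 here.

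**Figure D4:**
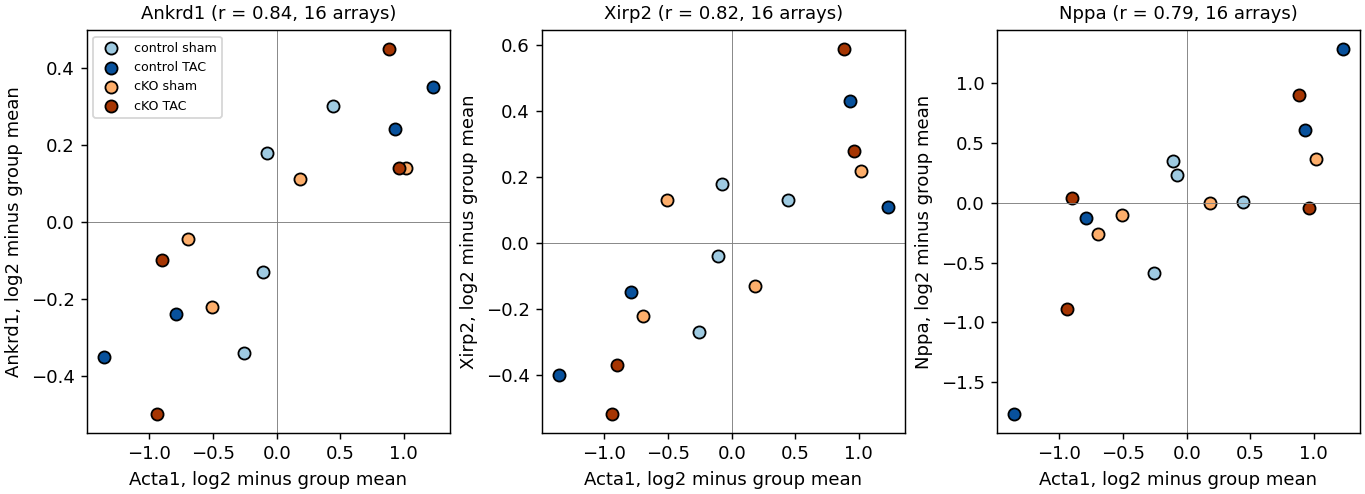
Ankrd1, Xirp2 and Nppa (y axes) against Acta1 (x axis), each as log2 value minus its group mean. Points are the 16 arrays coloured by group, and r is 0.84, 0.82 and 0.79. The lowest Acta1 point, a control TAC heart, is the lowest in Nppa by a wide margin.

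Genes with a pattern most like each actin were named by the highest r of values relative to group means over 16 hearts, as a description among 13669 genes. For Acta1 they were B230354K17Rik (0.89), Ptdss1 (0.88), which makes phosphatidylserine, Nars (0.87), an asparaginyl-tRNA synthetase, Atp8a2 (0.87), a phospholipid flippase, and Ubxn2b (0.87). For Actc1 they were Slc16a1 (0.93), a lactate transporter, Ank3 (0.92), a membrane anchor protein, 4932438A13Rik (0.91), Gbf1 (0.89), a Golgi exchange factor, and Prkar2a (0.89), a protein kinase A subunit. Spearman rho of these genes with Actc1 was 0.82, 0.74, 0.93, 0.78 and 0.75, in that order. For Acta2 they were Edar (0.87), Brsk1 (0.86), Hif1a (0.82), the hypoxia-inducible factor, Dhx38 (0.82) and Ccdc78 (0.82). Edar, Brsk1 and Ccdc78 had mean log2 values of 4.88, 4.83 and 4.45, just above the filter on low values. Whether these low signals lie above background was not tested. Without the 6 arrays of Myl7 above 6, r was 0.54 for Brsk1 with Acta2 and at least 0.68 for the other 14. Ankrd1 ranked 11, Xirp2 16 and Nppa 33 for Acta1.

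Actc1 was most often positively correlated with cardiomyocyte markers among the marker lists. Its r was above 0 with 9 of 9 cardiomyocyte markers (median 0.61, highest Tnnt2, cardiac troponin T, at 0.73) and with 0 of 6 endothelial and 0 of 6 macrophage markers, where 53.1% of all genes had r above 0. Among thin filament and actin assembly genes it was above 0 for 19 of 24 (median 0.37, highest Cap2, an actin filament disassembly factor, at 0.76). Among SRF and other transcription factors of the muscle actins it was above 0 for 17 of 19 (median 0.45, highest Tead1 at 0.71). It was above 0 for 5 of 14 SRF target genes of the cytoskeleton (median -0.10) and 2 of 5 atrial markers (median -0.24). The counts were 1 of 10 for fibroblast markers (median -0.24) and 6 of 14 for smooth muscle and pericyte markers (median -0.071). For skeletal muscle markers kept the count was 5 of 6 (median 0.23). Actc1 varied little, near the top of the scale, and how far compression there affects these r values was not tested. These correlations share arrays and array scaling, and no test was made.

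For Acta1 the picture differed in its signs. Its r was above 0 with 2 of 9 cardiomyocyte markers (median -0.34), 14 of 24 thin filament genes (median 0.25) and 9 of 19 transcription factors (median -0.054). It was above 0 with 10 of 10 fibroblast markers (median 0.59), 6 of 6 macrophage markers (median 0.44) and 1 of 6 skeletal muscle markers kept (median -0.17). The same held for 6 of 6 endothelial markers (median 0.34), 11 of 14 smooth muscle and pericyte markers (median 0.24) and 4 of 5 atrial markers (median 0.28). Among all genes the share was 52.2%. Fibroblast markers averaged 7.05 to 7.64 per array after sham and 7.23 to 7.82 after TAC in control hearts, and 7.19 to 7.66 after sham and 7.29 to 8.46 after TAC in cKO hearts. Their part in the Acta1 values was not tested.

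Acta2 had r above 0 with 10 of 14 smooth muscle and pericyte markers (median 0.24, highest Myh11 at 0.57), where 54.0% of all genes had it. The medians were of like size for cardiomyocyte markers (6 of 9, median 0.31), skeletal muscle markers kept (6 of 6, median 0.25) and thin filament genes (21 of 24, median 0.23). They were below 0 for endothelial markers (0 of 6, median -0.32) and macrophage markers (1 of 6, median -0.11). For SRF target genes of the cytoskeleton the count was 13 of 14 (median 0.25, highest Vcl, vinculin, at 0.66), and among the transcription factors Gata6 was highest at 0.66. With fibroblast markers r was above 0 for 7 of 10, at a median of 0.065, although the smooth muscle actin is also a marker of myofibroblasts.

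**Figure D5:**
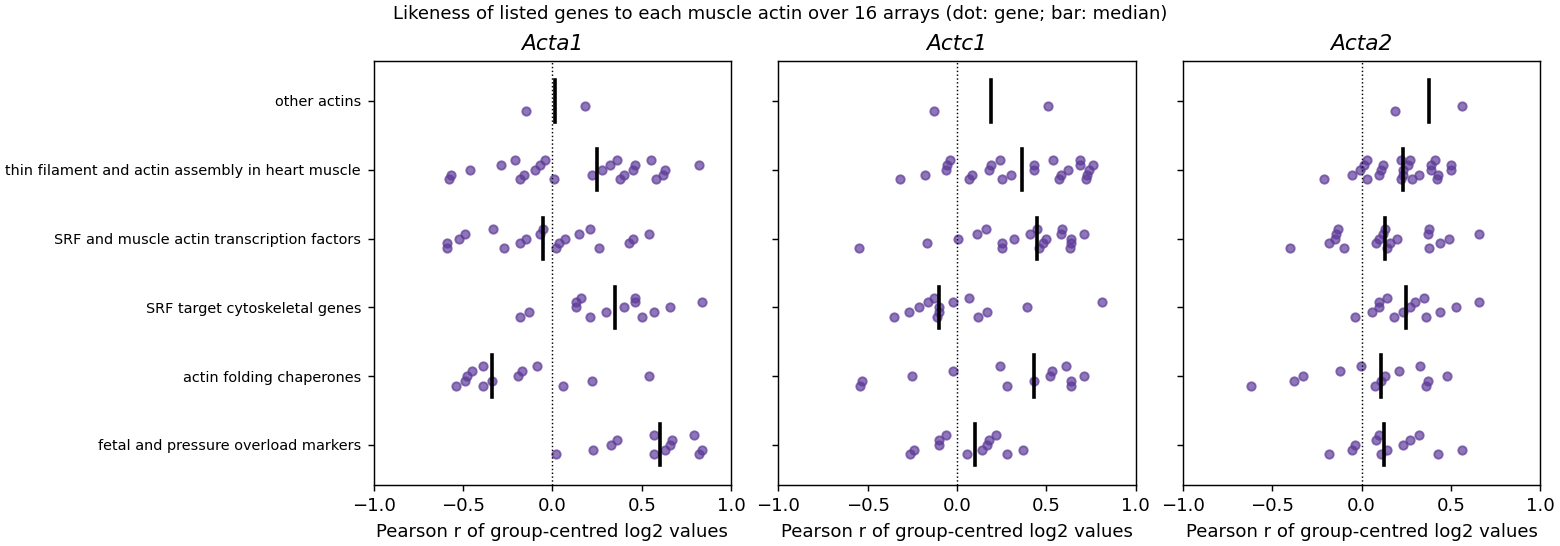
Pearson r (x axis) of each listed gene (dots) with Acta1, Actc1 and Acta2 over 16 arrays, with values taken relative to group means, for 6 gene lists (y axis) and their medians (bars). For fetal and pressure overload markers the median is 0.60 with Acta1, 0.10 with Actc1 and 0.12 with Acta2.

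The other actins did not pass the test either. Actb averaged 13.08 ± 0.14, 13.13 ± 0.12, 12.95 ± 0.19 and 13.00 ± 0.20 in control hearts after sham and TAC and in cKO hearts after sham and TAC, and its TAC difference averaged over genotype was 0.05 ± 0.076 (limma adjusted p = 0.829). Actg2, the enteric smooth muscle actin, read 4.63 to 5.06, just above the filter, with a difference of 0.049 ± 0.066 (adjusted p = 0.807). Actg1, the cytoplasmic gamma-actin, had no probe set of its own, since 4 probe sets list it together with Actb.

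No gene of the thin filament and its assembly passed the test. Of 24 such genes, 0 were called by limma in any comparison (7 had an unadjusted p under 0.05 for TAC averaged over genotype, against 12% of all probe sets), and the median TAC difference was -0.023 in control and -0.055 in cKO hearts, against 0.015 and 0.0075 over all probe sets. With TAC averaged over genotype the smallest p values belonged to Nebl, the cardiac nebulin homologue nebulette (-0.31 ± 0.11, adjusted p = 0.281), Cap2 (-0.20 ± 0.07, adjusted p = 0.298) and Pfn1, the actin monomer binder profilin (0.15 ± 0.058, adjusted p = 0.316). In cKO against control hearts averaged over surgery, 21 of 24 differences were positive (median 0.12), against 48.8% of all probe sets. In the same comparison 7 of 9 cardiomyocyte markers were positive (median 0.075), with differences from -0.42 to 0.28. Of these 9, 1 was called lower by limma, against 0.0188% of all probe sets called in either direction. Of the endothelial markers 0 of 6 were positive (median -0.20). The part of these markers in the values of the thin filament list was not tested.

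Of 19 transcription factors that act on muscle actin promoters, 0 were called by limma in any comparison, and 6 had an unadjusted p under 0.05 for TAC averaged over genotype, where 12% of all probe sets did. The median TAC difference was 0.033 in control and -0.075 in cKO hearts. The smallest p values in TAC averaged over genotype were those of the cardiac homeobox factor Nkx2-5 (0.18 ± 0.045, adjusted p = 0.233), of the SRF coactivator Myocd (-0.27 ± 0.10, adjusted p = 0.311) and of the coactivator Mrtfb (0.20 ± 0.074, adjusted p = 0.321).

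Of 14 other SRF target genes of the cytoskeleton, 0 were called by limma and 0 had an unadjusted p under 0.05 for TAC averaged over genotype (12% of all probe sets did), with a median TAC difference of -0.024 in control and 0.17 in cKO hearts, where 10 of 14 were positive, against 51.9% of all probe sets. The latter median was 0.043 without cKO TAC replicate 2. Fhl1 (0.29 ± 0.15, adjusted p = 0.429), the myosin light chain Myl9 (0.28 ± 0.15, adjusted p = 0.469) and Vcl (-0.19 ± 0.10, adjusted p = 0.478) had the smallest p values in TAC averaged over genotype. A strict CArG box in the same promoter window was found in 5 of the 13 of these genes with a promoter in the table (Vcl, Myl9, Cnn2, Filip1l and Fhl1), and in 1.62% of all 27025 genes.

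The chaperonin and prefoldin subunits help to fold newly made actin. Of 13, 0 were called by limma and 1 had an unadjusted p under 0.05 for TAC averaged over genotype (12% of all probe sets did), with median TAC differences of -0.025 in control and -0.13 in cKO hearts, where 10 of 13 were negative and 51.9% of all probe sets were positive. Cct7 (-0.16 ± 0.057, adjusted p = 0.293), Cct8 (-0.15 ± 0.074, adjusted p = 0.436) and Pfdn1 (0.13 ± 0.073, adjusted p = 0.488) had the smallest p values in TAC averaged over genotype. Of the 12 overload markers, 0 were called by limma and 1 had an unadjusted p under 0.05 for TAC averaged over genotype (12% of all probe sets did), with median TAC differences of 0.035 in control and 0.21 in cKO hearts, the latter 0.046 without cKO TAC replicate 2. Postn (0.99 ± 0.45, adjusted p = 0.397), Uchl1, a deubiquitinase (0.14 ± 0.073, adjusted p = 0.444), and Fhl1 had the smallest p values of that list in TAC averaged over genotype. In that comparison 9 of the 12 were positive and 3 negative, from -0.60 to 0.99, where 53.9% of all probe sets were positive.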

How the data were processed

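Expression was measured in hearts of 16 mice on Affymetrix Mouse Gene 1.0 ST arrays, 4 per group. The values are log2 expression values as deposited by the authors, with 2 decimals. MAS5 is named in the submitters' processing notes, with no version and no role, and how arrays were scaled to each other is not stated there. Array quartiles nearly coincide, so a change common to a whole array would not be seen. Groups came from the sample titles.

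Probe sets were named from the platform annotation, and coordinates and promoters came from RefSeq on GRCm38.p6. The 21333 probe sets with a mean above the 40th percentile (4.37) were tested. A model of 4 group means was fitted to all of them with limma 3.58.1 in R 4.3.3 (12 residual degrees of freedom, empirical Bayes with trend, two-sided), and p values were adjusted over all by Benjamini-Hochberg. The script was tested on simulated data. Correlations used values relative to group means with 100000 permutations within groups (numpy 2.4.6, scipy 1.17.1), and figures used matplotlib 3.10.9. Named are the 3 muscle actins, the 5 genes most like each, and, from each list, called genes or else up to 3 of smallest p in TAC averaged over genotype. All members of the list of other actins were also named. Other genes were named after their values were seen. The members, lists and added alternatives were chosen with earlier results of these data known.

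Alternatives changed 1 choice at a time: a filter at the 60th percentile or none, quantile normalization or median centring, array weights, no trend, a fit to only the groups compared, averaging over a gene's probe sets, a block for the replicate number, and omission of each array in turn. Leaving out 6 arrays with Myl7 above 6 or 3 sham arrays with Atf3 above 8 was added after seeing the data.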

Additional observations from a re-analysis of the deposited data

How the results depend on the processing

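The 21 differences of the muscle actins were recomputed under 27 alternatives, 558 values in all, since a fit to only the groups compared exists for 12 of them. None passed an adjusted p of 0.05 in limma, the smallest being 0.25, 545 kept their direction and 13 did not. Quantile normalization turned Actc1 to -0.035 for cKO against control after TAC and to -0.003 for that comparison averaged over surgery, and the correlation of Acta1 with Actc1 to -0.12 and with Uchl1 to -0.016. Array weights turned Actc1 to 0.0054 for TAC in cKO hearts. Without the 6 arrays of high Myl7, Actc1 was 0.032 for TAC in cKO hearts, Acta1 -0.12 for cKO against control after TAC (-0.15 as Acta1 minus Actc1), Acta2 0.14 for TAC averaged over genotype and Acta1 -0.46 for the interaction. Without those 6 arrays, the correlation of Acta1 was -0.10 with Actc1, -0.29 with Myh7, -0.33 with Uchl1 and -0.19 with Ccn2. The cause was not tested. The correlation of Actc1 with Acta2 no longer had a permutation p under 0.05 with median centring (0.52), without the 6 arrays (0.71) or without the 3 of high Atf3 (0.60).

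Leaving out each array in turn gave the following ranges. Actc1 ran from -0.0017 to 0.052 for TAC in control hearts, from -0.022 to 0.014 for TAC in cKO hearts and from -0.0033 to 0.023 for TAC averaged over genotype. The correlation of Acta1 ran from -0.32 to 0.20 with Actc1, from -0.42 to 0.19 with Acta2 and from -0.38 to 0.23 with Uchl1, and that of Actc1 with Acta2 from 0.44 to 0.73. The number of probe sets called ran from 0 to 2 for TAC in control hearts, 0 to 1 for TAC in cKO hearts and for TAC averaged over genotype, 0 to 27 for cKO against control after sham, 1 to 2 after TAC and 1 to 81 averaged over surgery.

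Over all probe sets, TAC in control hearts gave 0 calls, but 5 with no filter and 1 with only the groups compared. TAC in cKO hearts gave 0, but 1 with only the groups compared, and TAC averaged over genotype gave 0, but 1 with no filter. The 5 calls of cKO against control after sham became 0 with median centring, the 60th percentile, averaged probe sets of a gene, without the 6 arrays and without the 3, 3 with no trend or only the groups compared, and 1 with array weights. The 1 call after TAC became 2 with quantile normalization or array weights and 0 with no trend, only the groups compared, without the 6 and without the 3. The 4 calls averaged over surgery became 8 with quantile normalization or averaged probe sets of a gene, 9 at the 60th percentile, 2 with median centring or no trend, and 1 with no filter or without the 6 arrays.

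Replicate numbers 1 to 4 occur in every group. Of 24 pairs of arrays with the same number, 6 had deviations from their group means correlated above 0.1 (range -0.20 to 0.19). Pairs of different number were not set beside them, so whether arrays of 1 number share a batch was not tested. With the replicate number as a block, limma called 0 probe sets for cKO against control after sham and 2 averaged over surgery, and no muscle actin (Acta1 for TAC in cKO hearts 1.16, adjusted p = 0.752).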
